A study of Homo sapiens with 24 samples.

Results

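The genes described here lie on chromosome 1 between ROR1 and BOLA1, where many signals were lower in an SLFN11 knockout line of Ewing sarcoma cells than in its parent. The list was drawn up from that line difference in all 8 groups of the study, together with S1PR1, which went the other way. Of 58 listed genes, 54 had a named probe set among the 17687 genes measured, and 4 listed genes were not analysed here. The 54 genes run in order from ROR1 to NOTCH2, on the short arm of the chromosome, and the stretch continues past the centromere to BOLA1. Because the difference between the lines chose the genes, it is given below as a description, and the calls of the fit on it are counted without reading anything from them. Tests are read for irradiation, for time, and for genes outside the list.

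Parental ES8 cells, a human Ewing sarcoma line, were compared with ES8-1F2, a single derivative line in which SLFN11 had been knocked out with CRISPR/Cas9. Both lines grew in DMEM/F12 medium with glutamine and fetal bovine serum. They were irradiated with gamma rays at 2 Gy, or kept at 0 Gy, and RNA was taken after 4 h or 24 h. Each of the 8 combinations of line, dose and time had 3 arrays, so each line had 12. With 1 derivative line, loss of SLFN11 and any other difference between the lines cannot be told apart.

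Ewing sarcoma is a tumour of bone and soft tissue driven by fusions of EWSR1 with an ETS factor, most often FLI1. SLFN11, of the Schlafen family, blocks replication under stress and is known for sensitising tumour cells to drugs that damage DNA. The listed genes belong to no common pathway: they share a position, and their products range from cell surface receptors and G protein subunits to splicing factors, general transcription factors and mitochondrial enzymes.

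The log2 signal of SLFN11 ranged from 8.03 to 8.63 on parental arrays and from 6.33 to 7.07 on knockout arrays, without overlap. No source used here says whether its probes lie within the edited part of the gene. Of 9 measured Ewing sarcoma markers, 8 were above background on all 24 arrays. Background was the signal below which 95% of an array's negative controls lay. The exception was NPY, above background on 8 of 12 parental arrays and on 0 knockout arrays. Above background on all arrays were 1 of 6 epithelial markers (KRT19), 1 of 5 blood cell markers (CD14) and 2 of 6 endothelial markers (VWF and CLDN5). Others were above it on some arrays, among them KRT18 (12 parental and 5 knockout arrays), CLDN4 (10 and 8) and CDH5 (11 and 10). EPCAM and PECAM1 were above background on 4 parental arrays each and PTPRC on 1, and these were above it on 0 knockout arrays. Signals spread least on replicate 2 of both irradiated parental groups (interquartile range 3.28 at 4 h, 3.34 at 24 h).

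Genes with a mean log2 signal above 6 over all arrays (38 of the 54, called expressed below) are read apart from the 16 dimmer ones. The 16 are PDE4B, SLC35D1, GNG12, ANKRD13C, ADGRL2, PRKACB, CTBS, BCL10, LMO4, TGFBR3, GCLM, ARHGAP29, F3, DPYD, S1PR1 and VAV3. Over the expressed listed genes, the median of the mean difference between knockout and parental cells was -0.38 on the log2 scale, with quartiles of -0.54 and -0.22. The median over all 6997 genes of that brightness was 0.01. By condition, the median over the expressed listed genes was -0.44 at 0 Gy and 4 h, -0.38 at 0 Gy and 24 h, -0.32 at 2 Gy and 4 h, and -0.37 at 2 Gy and 24 h.

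Lower signal in the knockout line held for most of the listed genes but not for all. In 42 of 54 all 4 differences were below 0, in 6 all 4 were above 0, and 6 had both signs. Of the 38 expressed genes, 31 were below 0 throughout, and CACHD1, SGIP1, NEGR1 and LRRC8D were above 0 throughout. Of the 16 dim genes, 11 were below 0 throughout, and S1PR1 and GNG12 were above 0 throughout. On 14 genes every knockout array lay below every parental array, against 2.43% of all genes, and on 2, CACHD1 and S1PR1, every knockout array lay above, against 3.22% of all genes. These counts describe the contrast that chose the genes.

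The contrast that chose the genes was part of the limma fit across all genes, so their calls in it (adjusted p below 0.05) are a count and no test. At 0 Gy and 4 h 30 were called lower, against a background of 5.5% of all genes. The counts were 24 at 0 Gy and 24 h (background 5.09%), 24 at 2 Gy and 4 h (5.13%) and 22 at 2 Gy and 24 h (5.68%). Called higher were 5, 4, 4 and 5, with backgrounds of 6.27%, 6.47%, 6.87% and 6.29%. In all 4 conditions 18 were called lower and 3 higher, against 2.84% and 3.54% of all genes. Nothing is read from these counts.

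**Figure D1:**
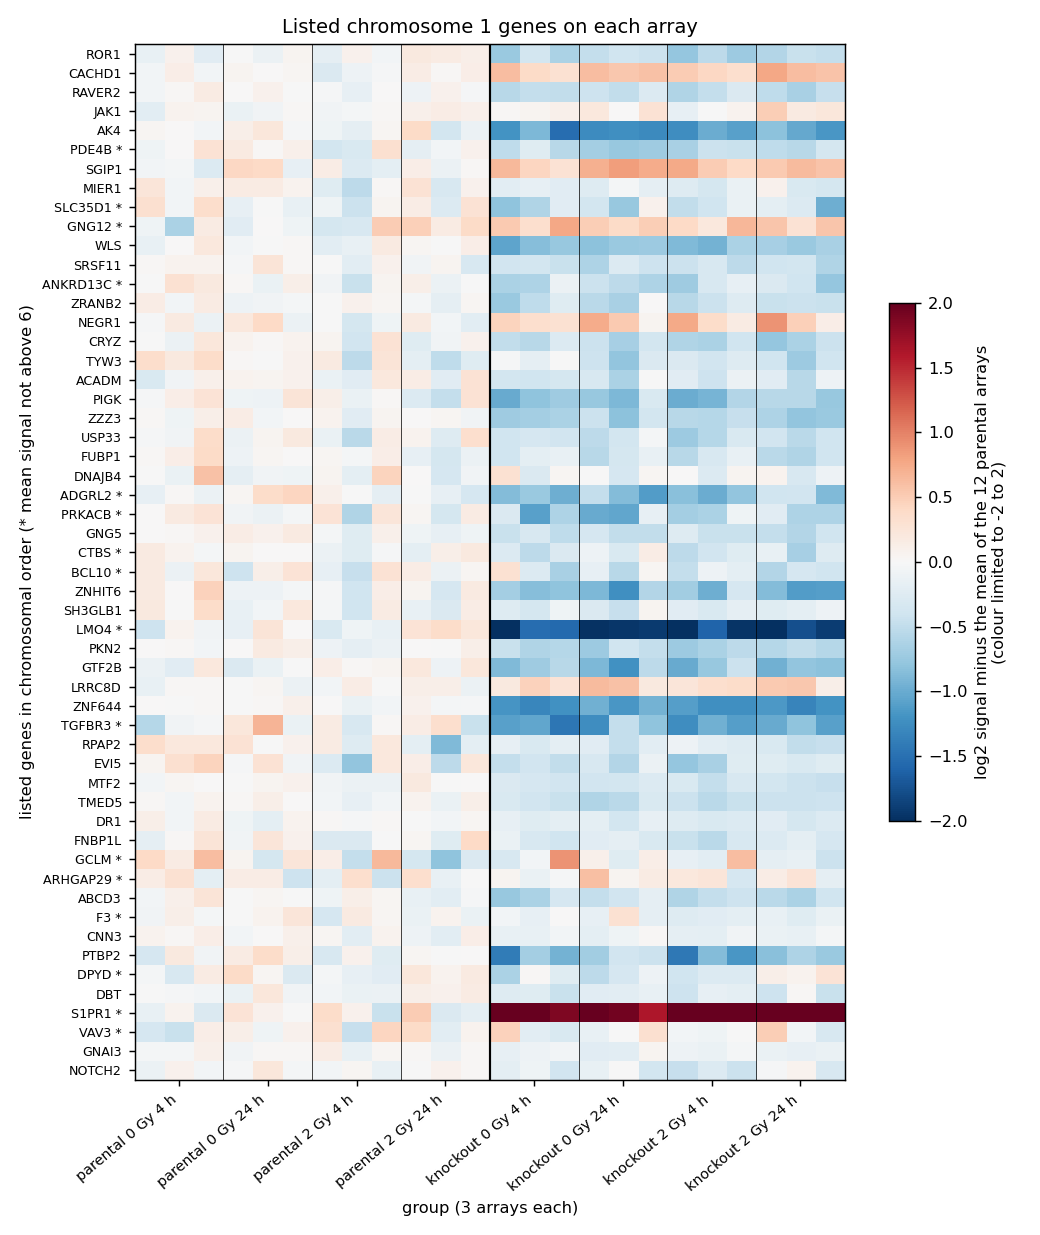
Each row is a listed gene in chromosomal order and each column an array, 3 per group; the colour is the log2 signal minus the mean of the 12 parental arrays, limited to between -2 and 2, and an asterisk marks a mean signal not above 6. The knockout columns are mostly blue, deepest for LMO4 (mean difference -1.90), while S1PR1 (2.19), SGIP1 (0.59) and CACHD1 (0.52) are red in all of them.

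S1PR1, a G protein-coupled receptor for sphingosine-1-phosphate, was the opposite mover. At 0 Gy and 4 h its log2 signal was 3.98, 4.20 and 3.85 on the parental arrays and 6.43, 6.56 and 5.99 on the knockout arrays. By 24 h without irradiation it was 4.40, 4.22 and 4.11 against 6.16, 6.06 and 5.75. Every knockout array was above every parental array. After 2 Gy the parental signals were 4.49, 4.21 and 3.68 (4 h) and 4.63, 3.84 and 3.93 (24 h). The knockout signals there were 6.33, 6.65 and 6.27 (4 h) and 6.51, 6.82 and 6.23 (24 h). Over the 4 conditions the mean difference was 2.19 ± 0.30 (SD of the 4 differences), or 4.55-fold, and the smallest was 1.75 at 0 Gy and 24 h. Its mean over all arrays was below 6, so by the rule it counts among the dim genes, although it was above background on all 24 arrays.

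ZNF644, a zinc finger protein found in complexes with the histone methyltransferases EHMT1 and EHMT2, had the lowest mean difference of the expressed listed genes. Without irradiation its signal at 4 h was 9.03, 9.02 and 9.04 on parental arrays and 7.84, 7.72 and 7.80 on knockout arrays. At 24 h it was 9.02, 9.05 and 9.13 against 8.06, 7.86 and 8.08. The arrays of each line lay close together and the lines were far apart. Irradiated parental cells gave 9.03, 8.90 and 8.96 (4 h) and 9.11, 8.98 and 9.01 (24 h). Irradiated knockout cells gave 7.92, 7.80 and 7.80 (4 h) and 7.88, 7.70 and 7.82 (24 h). The mean difference was -1.17 ± 0.08 (SD of the 4 differences), or 2.24-fold lower.

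AK4, a mitochondrial adenylate kinase, followed with a mean difference of -1.14 ± 0.17. Unirradiated, its signal at 4 h was 7.20, 7.18 and 7.11 on parental arrays and 5.97, 6.26 and 5.65 on knockout arrays. At 24 h it was 7.29, 7.39 and 7.14 against 5.91, 5.94 and 5.89. At both times all knockout arrays lay below all parental arrays. After 2 Gy the parental signals were 7.09, 6.99 and 7.21 (4 h) and 7.55, 6.81 and 7.05 (24 h), and the knockout signals 5.93, 6.18 and 6.08 and then 6.35, 6.14 and 6.01. The widest spread was in the irradiated parental group at 24 h, which did not reach down to the knockout arrays.

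PTBP2, the neuronal relative of the splicing repressor PTBP1, had a mean difference of -0.85 ± 0.14, or 1.80-fold lower. At 0 Gy and 4 h its signal was 8.44, 8.97 and 8.71 on parental arrays (replicates 1 to 3) and 7.37, 8.09 and 7.82 on knockout arrays. At 2 Gy and 4 h it was 8.45, 8.86 and 8.53 against 7.34, 7.90 and 7.60. In these 4 groups replicate 1 was the lowest array, in parental and in knockout cells alike. At 24 h the parental arrays ranged up to 9.14 and the knockout arrays from 7.93 to 8.39. Replicate 1 was the lowest array in both knockout groups at 24 h as well, but not in the parental group at 0 Gy or at 2 Gy. The lines did not overlap within any condition or over all arrays.

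**Figure D2:**
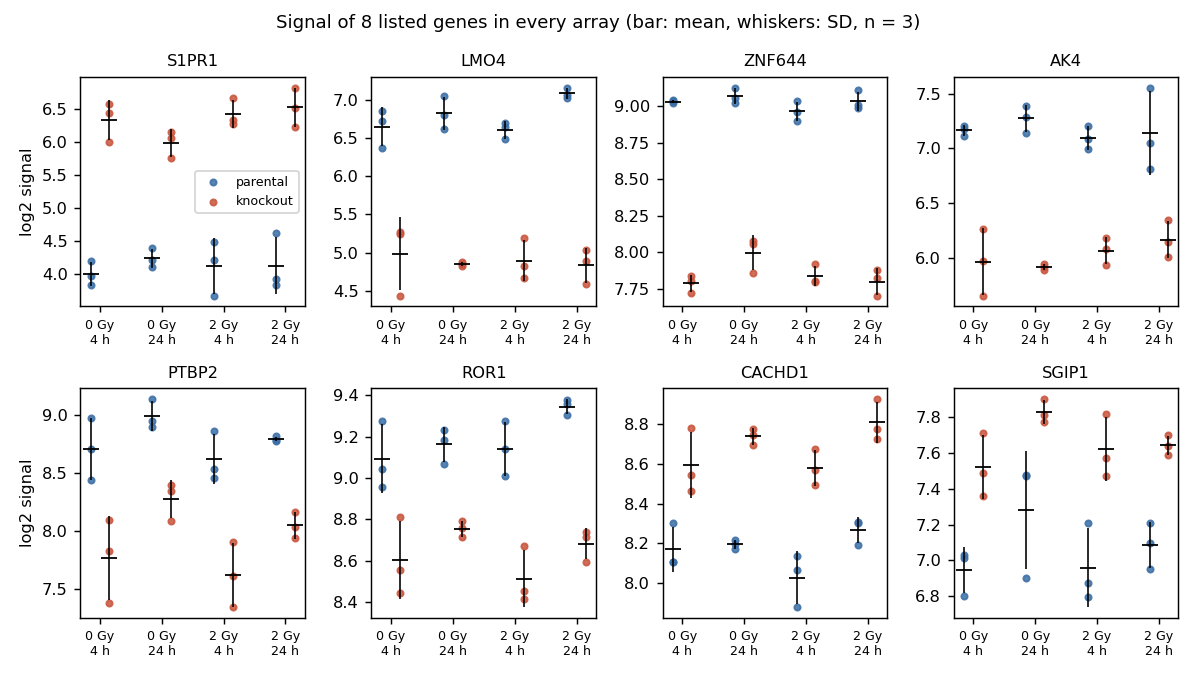
Log2 signal of 8 listed genes on every array, by dose and time, with parental arrays in blue and knockout arrays in red, and with the mean (bar) and SD (whiskers) of 3 arrays. S1PR1 lies at 3.68 to 4.63 in parental and at 5.75 to 6.82 in knockout cells, ZNF644 lies at 8.90 to 9.13 against 7.70 to 8.08, and only SGIP1 has parental and knockout arrays that overlap.

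Promoters are shown for S1PR1, the opposite mover, and for the 3 expressed genes with the lowest mean difference. Among the dim genes left out was LMO4, whose mean difference (-1.90) was lower than that of those 3. The windows are the 250 bases before the most upstream RefSeq transcription start, on build GRCh38.p14. The window of S1PR1 is chr1:101236769-101237018 on the plus strand and that of ZNF644 is chr1:91022036-91022285 on the minus strand. AK4 is at chr1:65147302-65147551 and PTBP2 at chr1:96722388-96722637, both on the plus strand. Sequences read 5′ to 3′ along the gene, and capitals mark matches to the motifs named in the next paragraph.
S1PR1: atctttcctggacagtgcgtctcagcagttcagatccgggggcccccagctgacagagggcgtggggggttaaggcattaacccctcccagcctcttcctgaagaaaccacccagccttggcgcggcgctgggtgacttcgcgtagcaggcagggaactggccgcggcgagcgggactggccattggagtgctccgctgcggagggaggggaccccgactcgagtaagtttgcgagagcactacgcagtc
ZNF644: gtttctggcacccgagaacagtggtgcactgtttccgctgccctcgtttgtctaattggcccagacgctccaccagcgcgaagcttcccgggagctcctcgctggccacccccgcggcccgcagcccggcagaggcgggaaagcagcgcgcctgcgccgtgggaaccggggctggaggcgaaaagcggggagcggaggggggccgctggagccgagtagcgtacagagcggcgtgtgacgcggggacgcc
AK4: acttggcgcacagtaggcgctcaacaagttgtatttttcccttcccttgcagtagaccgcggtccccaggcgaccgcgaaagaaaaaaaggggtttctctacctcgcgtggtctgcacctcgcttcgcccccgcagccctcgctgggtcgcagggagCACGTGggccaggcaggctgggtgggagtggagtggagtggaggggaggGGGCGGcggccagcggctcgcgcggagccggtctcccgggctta
PTBP2: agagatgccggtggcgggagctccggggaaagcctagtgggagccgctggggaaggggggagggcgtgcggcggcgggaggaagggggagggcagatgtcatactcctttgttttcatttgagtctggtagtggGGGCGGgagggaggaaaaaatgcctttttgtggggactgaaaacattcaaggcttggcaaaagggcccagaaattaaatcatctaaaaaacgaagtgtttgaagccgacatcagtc

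RefSeq promoters were found for 51 of the 54 genes. Of 6 motifs searched on both strands of these windows, GGGCGG, the GC box bound by SP1, was in 36 of the 51 (70.6%). It was in 68.3% of the 5898 expressed array genes with a promoter and in 42.2% of all 27305 promoters. CACGTG, the E-box core, was in 3 (5.88%, with AK4 and GTF2B among them) against 9.94% of expressed genes and 6.46% of all promoters. TGACTCA, the AP-1 site, was in 4 (EVI5, F3, GNG5 and VAV3, or 7.84%) against 1.97% and 4.15%. TATAAA, the TATA box core, was in 5 (9.80%) against 5.54% and 11.2%. The letters GGAAGGAA, 2 copies of the ETS core, and TGACGTCA, the cAMP response element, were in 0 of the 51, against 2.90% and 3.26% of expressed genes and 2.99% and 1.75% of all promoters. AK4 holds CACGTG and GGGCGG and PTBP2 holds GGGCGG, whereas the windows of S1PR1 and ZNF644 hold none of the 6. The median window of the listed genes had 24 CpG sites and 68.8% G and C, against 21 and 64.8% for expressed array genes. These matches describe letters in a window.

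Among the 8 cell surface proteins, 5 were lower and 3 higher in all 4 conditions. ROR1, a receptor for WNT5A that resembles tyrosine kinases, had parental signals of 8.96, 9.21 and 9.38 (lowest, median and highest of 12 arrays) and knockout signals of 8.41, 8.69 and 8.81. Its arrays did not overlap, and the mean difference was -0.55 ± 0.12. NOTCH2, a receptor for ligands on neighbouring cells and the last listed gene in order, had a smaller difference of -0.22 ± 0.08, with overlap. Dim ADGRL2, an adhesion G protein-coupled receptor, ran from 6.03 to 6.78 in parental cells and from 5.24 to 5.98 in knockout cells. Its difference of -0.78 was more variable (SD 0.29), from -1.10 to -0.39.

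TGFBR3, the co-receptor betaglycan that presents TGF-beta to its receptors, was above background on all 12 parental arrays and on 1 of 12 knockout arrays. In the 3 conditions in which no knockout array was above background, its signal was at least 1.35-fold lower (0 Gy, 4 h), at least 1.59-fold lower (2 Gy, 4 h) and at least 1.70-fold lower (2 Gy, 24 h). These bounds set the background level, or the signal where it was higher, as the knockout value. F3, tissue factor, which starts blood coagulation, differed by -0.12 ± 0.05 with overlapping arrays.

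On the higher side, CACHD1, a protein related to calcium channel auxiliary subunits, had parental signals of 7.88, 8.18 and 8.30 and knockout signals of 8.46, 8.71 and 8.93. The arrays did not overlap, and the mean difference was 0.52 ± 0.06, or 1.43-fold. NEGR1, a GPI-anchored neuronal adhesion molecule, had signals of 6.58, 6.89 and 7.33 against 6.98, 7.34 and 7.83, with overlap. Its mean difference was 0.43 ± 0.15. CACHD1 lies close to ROR1 in gene order, so higher and lower signals came from genes that lie near each other.

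The 10 genes of signalling inside the cell included 6 that were lower throughout and GNG12, which was higher throughout. GNG5, a gamma subunit of heterotrimeric G proteins, had signals of 7.97, 8.22 and 8.38 against 7.62, 7.77 and 7.95. It differed by -0.43 ± 0.11, without overlap. GNG12, another gamma subunit, went the other way by 0.47 ± 0.25, at 4.67 to 5.82 in parental cells and 5.52 to 6.08 in knockout cells, with overlap.

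GNAI3, an alpha subunit that inhibits adenylyl cyclase, differed by -0.12 ± 0.01 over the 4 conditions, with overlap. Each of the 4 differences had an SE of 0.08, so the narrow SD does not measure their precision. PRKACB, a catalytic subunit of protein kinase A, differed by -0.59 ± 0.19. PDE4B, a phosphodiesterase that degrades cAMP, was above background on 8 of 12 parental arrays and on 0 knockout arrays. Its signal was at least 1.06-fold lower at 0 Gy and 4 h, at least 1.08-fold at 0 Gy and 24 h, and at least 1.05-fold at 2 Gy and 24 h, with no bound above 1 at 2 Gy and 4 h. BCL10, an adaptor of NF-kB signalling, differed by -0.28 ± 0.14.

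Both signs were found for JAK1, a kinase of cytokine receptors. Its difference was 0.12 ± 0.10, with parental signals of 8.03 to 8.40 and knockout signals of 8.08 to 8.73. VAV3 differed by 0.01 ± 0.14 and was above background on 8 arrays of each line. ARHGAP29 was not above background on any of the 24 arrays, so it has no fold.

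Of the 10 genes of secretion, membrane traffic and channels, 8 were lower throughout and 2 higher. WLS, the carrier that brings WNT ligands to the cell surface, had parental signals of 7.87, 8.08 and 8.29 and knockout signals of 7.03, 7.34 and 7.46. It differed by -0.79 ± 0.08, or 1.73-fold lower, without overlap. PIGK, the catalytic subunit of the transamidase that attaches GPI anchors, had signals of 6.54, 7.02 and 7.31 against 6.01, 6.25 and 6.70. Its difference was -0.74 ± 0.22, and the arrays overlapped. TMED5, a cargo receptor of early secretory vesicles, differed by -0.44 ± 0.07 without overlap.

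EVI5, a GTPase activating protein of RAB11 traffic, differed by -0.40 ± 0.23, and SLC35D1, a nucleotide sugar transporter, by -0.43 ± 0.26, both with overlap. FNBP1L, a membrane-bending F-BAR protein, differed by -0.31 ± 0.05 and SH3GLB1, endophilin B1, by -0.22 ± 0.14. Dim ANKRD13C, an ankyrin repeat protein, differed by -0.46 ± 0.16. SGIP1, an endocytic adaptor, was higher in knockout cells by 0.59 ± 0.05, at 6.79, 7.02 and 7.47 in parental and 7.36, 7.67 and 7.90 in knockout cells. Its lines overlapped over all arrays. LRRC8D, a subunit of volume-regulated anion channels, was higher by 0.37 ± 0.09, at 7.84 to 8.13 against 8.09 to 8.61.

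All but 1 of the 9 genes of transcription and chromatin were lower throughout, and none was higher throughout. LMO4, a LIM domain adaptor of transcription factors, had the most negative difference of all 54 genes and is named after its values were seen. It counts among the dim genes (mean 5.84), with a mean of 6.79 in parental and 4.89 in knockout cells, although it was above background on every array. Its unirradiated parental signals were 6.37, 6.86 and 6.72 (4 h) and 6.62, 7.05 and 6.80 (24 h). The knockout signals were 4.43, 5.27 and 5.24 (4 h) and 4.82, 4.84 and 4.88 (24 h). No knockout array came within the parental range. After 2 Gy the parental signals were 6.48, 6.70 and 6.64 (4 h) and 7.07, 7.16 and 7.02 (24 h), against 4.67, 5.19 and 4.83 and then 4.58, 5.03 and 4.89. The mean difference was -1.90 ± 0.27, or 3.73-fold lower.

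GTF2B, the general factor TFIIB that bridges TBP and RNA polymerase II, had parental signals of 7.03, 7.33 and 7.54 and knockout signals of 6.11, 6.51 and 6.88. It differed by -0.80 ± 0.13, or 1.74-fold lower, without overlap. ZZZ3, a subunit of the ATAC histone acetyltransferase complex, had signals of 7.14, 7.38 and 7.50 against 6.55, 6.73 and 6.99. It differed by -0.61 ± 0.10, also without overlap. MTF2, a Polycomb-like subunit that brings PRC2 to chromatin, differed by -0.37 ± 0.09, with parental arrays from 8.17 and knockout arrays up to 8.02.

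FUBP1, a DNA-binding regulator of MYC, differed by -0.36 ± 0.06 and DR1, a repressor of TBP, by -0.25 ± 0.05. MIER1, a corepressor, differed by -0.20 ± 0.14. RPAP2, a phosphatase of the RNA polymerase II tail, had both signs, with a mean difference of -0.28 ± 0.22. All 4 had overlapping arrays.

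The 6 genes of RNA processing were all lower throughout, with a median of -0.46. Beside PTBP2, ZNHIT6, an assembly factor of box C/D small nucleolar ribonucleoproteins, had parental signals of 6.39, 6.78 and 7.26 and knockout signals of 5.57, 5.93 and 6.45. It differed by -0.84 ± 0.20, or 1.79-fold lower, with a narrow overlap. RAVER2, a ribonucleoprotein that works with PTB proteins, ran from 8.77 to 9.09 in parental cells and from 8.28 to 8.65 in knockout cells. It differed by -0.47 ± 0.07 without overlap. The splicing proteins SRSF11 (-0.43 ± 0.08) and ZRANB2 (-0.44 ± 0.11) and the tRNA modification enzyme TYW3 (-0.34 ± 0.15) overlapped between the lines.

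Of the 8 metabolic genes, 7 were lower throughout. CRYZ, a quinone reductase, had parental signals of 6.92, 7.34 and 7.59 and knockout signals of 6.54, 6.78 and 7.03. Its difference of -0.52 ± 0.03 was nearly the same in every condition, although each had an SE of 0.14 and the arrays overlapped. ABCD3, a peroxisomal transporter of fatty acids and bile acid intermediates, had signals of 8.38, 8.57 and 8.85 against 7.82, 8.11 and 8.41. It differed by -0.49 ± 0.14, with overlap.

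ACADM, which oxidises medium-chain fatty acids, differed by -0.31 ± 0.08, and DBT, a core subunit of the branched-chain keto acid dehydrogenase, by -0.26 ± 0.11. Dim CTBS, a lysosomal chitobiase, differed by -0.30 ± 0.15, and DPYD, which starts pyrimidine breakdown, by -0.19 ± 0.15. GCLM, the modifier subunit of glutathione synthesis, had both signs, from -0.22 to 0.22. Among the last 3 genes, the deubiquitinase USP33 differed by -0.42 ± 0.07, the actin-binding calponin CNN3 by -0.12 ± 0.06 and the chaperone DNAJB4 by -0.07 ± 0.09.

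Just under the mean of 6 that divides expressed from dim genes lay GCLM (5.89, differences from -0.22 to 0.22) and ADGRL2 (5.97, mean difference -0.78), and just above it lay EVI5 (6.23, -0.40) and RPAP2 (6.31, -0.28).

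Other measured genes of the stretch were lower as well, and the difference was smaller further along the chromosome. The stretch from ROR1 to BOLA1 held 334 measured genes, 156 of them expressed, and 132 of these (84.6%) had a mean difference below 0. Among the 118 expressed genes of the stretch that are not on the list, the median was -0.18, against -0.38 for the listed ones. On the rest of chromosome 1 the median was 0.00 over 271 expressed genes before ROR1 (49.1% below 0) and -0.02 over 269 after BOLA1 (55.8% below 0). The stretch was drawn on these values, so this describes its extent.

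In 4 successive blocks of 39 expressed genes, the median went from -0.42 (ROR1 to BRDT) to -0.26 (SETSIP to AMPD2), -0.23 (GSTM4 to WDR3) and -0.12 (WARS2 to BOLA1). The first block held 26 of the 38 expressed listed genes, with a median of -0.43, and its 13 other genes had a median of -0.37. The second held 11 listed genes (-0.31) and 28 others (-0.22), the third none, and the fourth only NOTCH2. The listed genes are therefore drawn from the end of the stretch where the difference was larger.

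At the edges the values changed by gene rather than at a sharp border. Before ROR1 lay ALG6 (-0.68), ITGB3BP (-0.31) and PGM1 (0.02), and after BOLA1 lay SV2A (0.08), SF3B4 (-0.09) and MTMR11 (-0.21). The 20 expressed genes before ROR1 had a median of -0.14 and the 20 after BOLA1 one of -0.06.

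**Figure D3:**
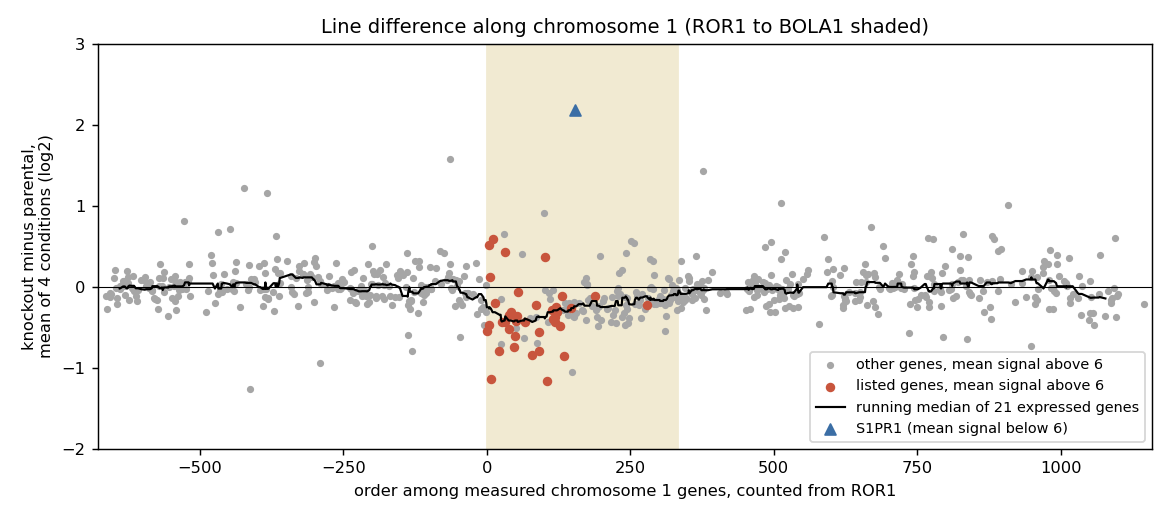
Each round point is an expressed gene of chromosome 1 (mean log2 signal above 6), placed by its order among measured genes counted from ROR1, with the knockout minus parental difference (log2, mean of 4 conditions) on the vertical axis; listed genes are red, S1PR1, whose mean signal is below 6, is a blue triangle, the black line is the running median of 21 expressed genes, and the stretch from ROR1 to BOLA1 is shaded. The running median leaves 0 near ROR1, is lowest in the part of the stretch nearest ROR1, where 39 genes have a median of -0.42, and is back near 0 past BOLA1.

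S1PR1 did not share its sign with most of its neighbours. On the side of ROR1 lay CDC14A, a phosphatase (7.86 in parental and 6.80 in knockout cells), EXTL2 (-0.36), SLC30A7 (-0.19) and DPH5 (-0.37). On the other side OLFM3, a secreted neural protein, was above background on 3 of 12 parental and 11 of 12 knockout arrays. Where 0 parental arrays were above background it was at least 1.55-fold higher (0 Gy, 24 h) and at least 1.77-fold higher (2 Gy, 4 h). The next gene, COL11A1, a fibrillar collagen chain, had means of 6.50 in parental and 5.34 in knockout cells, without overlap, and RNPC3 differed by -0.32. Besides OLFM3, the unlisted genes of the stretch with the largest higher signal were LRRC8C (0.91), ST6GALNAC3 (0.69) and PTGER3 (0.66). LRRC8C encodes a volume-regulated anion channel subunit, like LRRC8D, which was also higher.

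The response to irradiation was not used to choose the genes and could be tested. None of the 54 was called in either line at either time by limma after Benjamini-Hochberg adjustment over 17687 genes. The background of called genes was 0.226% of all genes in parental cells at 4 h, 0.0678% in parental cells at 24 h, and 0% in knockout cells at both times. An unadjusted p below 0.05 was found for 3 and 5 of the 54 genes in parental cells at 4 h and 24 h, and for 0 and 3 in knockout cells. The shares over all genes were 6.69%, 6.93%, 3.30% and 4.16%. The median response of the 54 genes was -0.09 in parental cells at 4 h and -0.02 in the other 3 comparisons. The irradiated parental group at 4 h held the array of narrowest signal range (interquartile range 3.28). Its median response without that array was not computed, so the -0.09 is not read as a shared fall.

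The lowest adjusted p in parental cells at 4 h was that of EVI5, which differed by -0.56 (SE 0.19, 95% interval -0.95 to -0.17, adjusted p = 0.55). At 24 h it was that of RPAP2, with -0.54 (SE 0.15, interval -0.85 to -0.23, adjusted p = 0.25). In both genes replicate 2 of the irradiated parental group was the lowest parental array, and this was an array of narrow signal range. Without both narrow arrays the difference was -0.31 in EVI5 (adjusted p = 1.00) and -0.31 in RPAP2 (adjusted p = 0.72). In knockout cells every adjusted p was above 0.99. The median 95% interval of a response was 0.31 log2 units to either side, before adjustment over all genes. With 3 arrays per group, larger responses could also go uncalled, as those of EVI5 and RPAP2 did.

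Nor did the irradiation response of a listed gene differ detectably between the lines. Tested as an interaction, no gene of all 17687 was called at 4 h or at 24 h (0% and 0%), and an unadjusted p below 0.05 was found for 0 and 2 of the 54, against 2.61% and 3.17% of all genes. The 2 at 24 h were ADGRL2, whose response was 0.71 higher in knockout than in parental cells (SE 0.23, adjusted p = 1.00), and S1PR1, 0.64 higher (SE 0.30, adjusted p = 1.00). In S1PR1 this came from -0.11 in parental and 0.53 in knockout cells. For the difference of responses the median interval was 0.43 to either side.

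**Figure D4:**
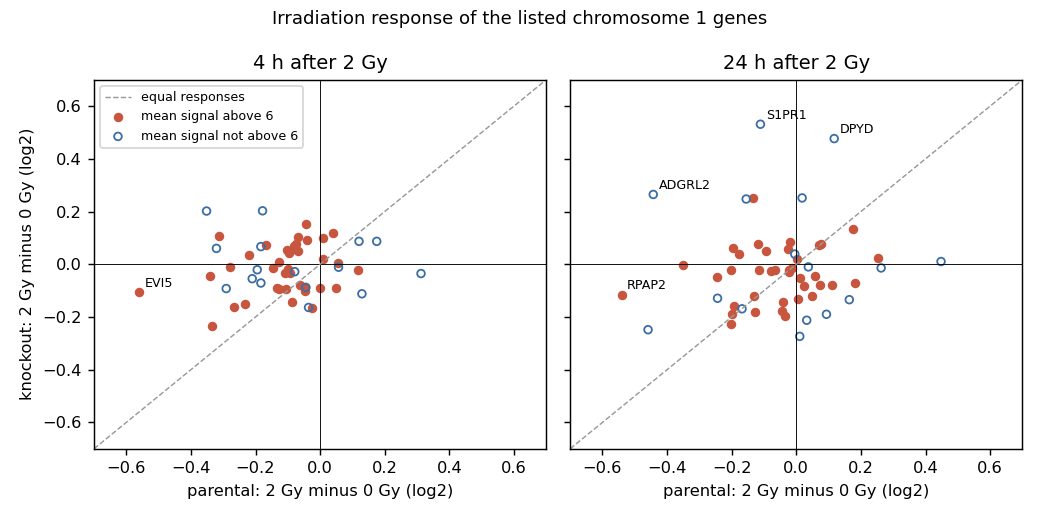
Each point is a listed gene, with its 2 Gy minus 0 Gy difference in parental cells (log2, horizontal) and in knockout cells (log2, vertical), at 4 h on the left and at 24 h on the right; filled points have a mean signal above 6 and the dashed line marks equal responses. Most points lie near 0, and the labelled EVI5 (-0.56 in parental cells), RPAP2 (-0.54) and S1PR1 (0.53 in knockout cells) did not pass adjustment over all genes.

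Time after treatment gave the same count. Of the 54 genes, 0 were called between 4 h and 24 h in either line at either dose, with backgrounds of 0% (parental, 0 Gy), 0.695% (parental, 2 Gy, of which 0.0509% lower and 0.645% higher), 0% (knockout, 0 Gy) and 0.0452% (knockout, 2 Gy). Unadjusted p below 0.05 was found for 3, 6, 5 and 6 of the 54, against 4.69%, 8.80%, 6.87% and 7.94% of all genes. The lowest adjusted p in each was 1.00, 0.21 (RPAP2, -0.46), 0.49 (PTBP2, 0.51 higher at 24 h, SE 0.14) and 0.26 (JAK1, 0.33 higher, SE 0.09). The difference of the time response between the lines gave 0 calls (background 0%). An unadjusted p below 0.05 was found for 1 of 54 at each dose, against 3.5% (0 Gy) and 3.55% (2 Gy) of all genes.

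In fits with the replicate number as a block, RPAP2 was called lower after irradiation in parental cells at 24 h (adjusted p = 0.044) and lower at 24 h than at 4 h in irradiated parental cells (adjusted p = 0.048). PTBP2 was called higher at 24 h than at 4 h in knockout cells at 0 Gy (adjusted p = 0.024) and at 2 Gy (adjusted p = 0.026). Over all genes, the correlations between deviations of same-numbered arrays did not all exceed 0.1 in these comparisons, so the numbers were not taken to pair them. For irradiation of parental cells at 24 h they ran from -0.02 to 0.09. For time they ran from 0.09 to 0.48 in irradiated parental cells, just short of the threshold. In knockout cells they ran from 0.03 to 0.18 at 0 Gy and from -0.05 to 0.15 at 2 Gy. In PTBP2 itself, however, replicate 1 was the lowest and replicate 2 the highest array in every knockout group. Whether PTBP2 changed with time in knockout cells therefore depends on the pairing and is not settled here. The same holds for RPAP2 with irradiation and with time in parental cells.

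Genes elsewhere in the genome that work with the listed ones, or are close relatives of them, were followed in 13 lists. They were not chosen by the rule, but the lists were drawn up with earlier results of these data known. Calls on them are therefore not independent of those results. Of the genes in these lists, 205 were measured. In all 4 conditions limma called 13 of these lower in knockout cells and 22 higher, that is 6.34% and 10.7% of them, against 2.84% and 3.54% of all genes. Of the 205, 121 had a mean above 6, against 6997 of all 17687 genes, so these shares compare sets unlike in brightness. Lines without overlap were more frequent above a mean of 6 (3.86% lower, 5.83% higher) than over all genes (2.43% and 3.22%). The median difference over the 205 was 0.05. The genes named next were picked for being called in all 4 conditions, up to 3 per list by size of difference. The adjusted p given is the largest of the 4. Of these 25 genes, 14 kept the call in every condition without each array of that condition in turn.

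Among WNT genes (2 lower and 3 higher of 18), ROR2, the paralogue of ROR1, was higher where ROR1 was lower. Its signal was 3.72, 4.16 and 4.48 (lowest, median and highest) on parental arrays, 11 of 12 of them above background, and 5.52, 6.08 and 6.41 on knockout arrays, without overlap. It differed by 1.93 ± 0.16 (adjusted p = 2.90e-09). The WNT receptor FZD4 was higher by 1.21 and its relative FZD6 lower (-0.80 ± 0.03, adjusted p = 0.00043). Of its 20 nearest expressed neighbours, FZD6 had 15 below 0, with a median of -0.15.

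Among TGF-beta genes (1 lower and 2 higher of 13), 2 receptors were higher where the co-receptor TGFBR3 was lower. TGFBR2, the signalling type of receptor, had parental signals of 4.26, 4.70 and 5.11. Its knockout signals had a median of 6.28 and a highest value of 6.56, and none overlapped the parental ones. The difference was 1.52 (SD 0.15, adjusted p = 4.81e-07). The 20 expressed neighbours of TGFBR2 had a median of 0.47, and 0 were below 0. ENG, endoglin, a relative of TGFBR3, was higher by 1.74 ± 0.17 (adjusted p = 1.55e-11), with 9 of its 20 neighbours below 0. The ligand TGFB3 was lower (-0.88 ± 0.15, adjusted p = 0.046). Its call ended in a condition without any of 5 single arrays, with differences of -0.75 to -0.41.

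Among sphingosine-1-phosphate genes (1 lower and 0 higher of 9), S1PR2, a receptor of the same family as S1PR1, was lower. Its signal was 5.19, 5.63 and 5.86 on parental arrays and 4.32, 4.93 and 5.19 on knockout arrays, a difference of -0.75 ± 0.08 (adjusted p = 0.022). Leaving out any of 9 single arrays ended its call in a condition, with differences of -0.69 to -0.52. S1PR1 and S1PR2 lay on opposite sides of 0.

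Among heterotrimeric G protein genes (1 lower and 3 higher of 21), GNAI1, the relative of GNAI3, was lower, with 8.01, 8.23 and 8.35 in parental cells and 6.88, 7.13 and 7.44 in knockout cells. The arrays did not overlap (-1.07 ± 0.14, adjusted p = 8.92e-09), and 10 of its 20 neighbours were below 0. GNAO1 (0.91) and GNG11 (0.67) were among those called higher. Among cAMP genes (1 lower and 3 higher of 17), the regulatory subunit PRKAR2B was lower (-0.78 ± 0.18, adjusted p = 0.048). The cyclase ADCY1 was higher by 0.65 and the anchoring protein AKAP12 by 0.87, and all 20 expressed neighbours of AKAP12 were above 0, with a median of 0.40. A call ended in a condition without any of 6 single arrays for PRKAR2B (-0.60 to -0.40) and of 11 for ADCY1 (0.45 to 0.65). For AKAP12 this was so at 0 Gy and 24 h without parental replicate 1 (0.55) or without knockout replicate 3 (0.48).

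**Figure D5:**
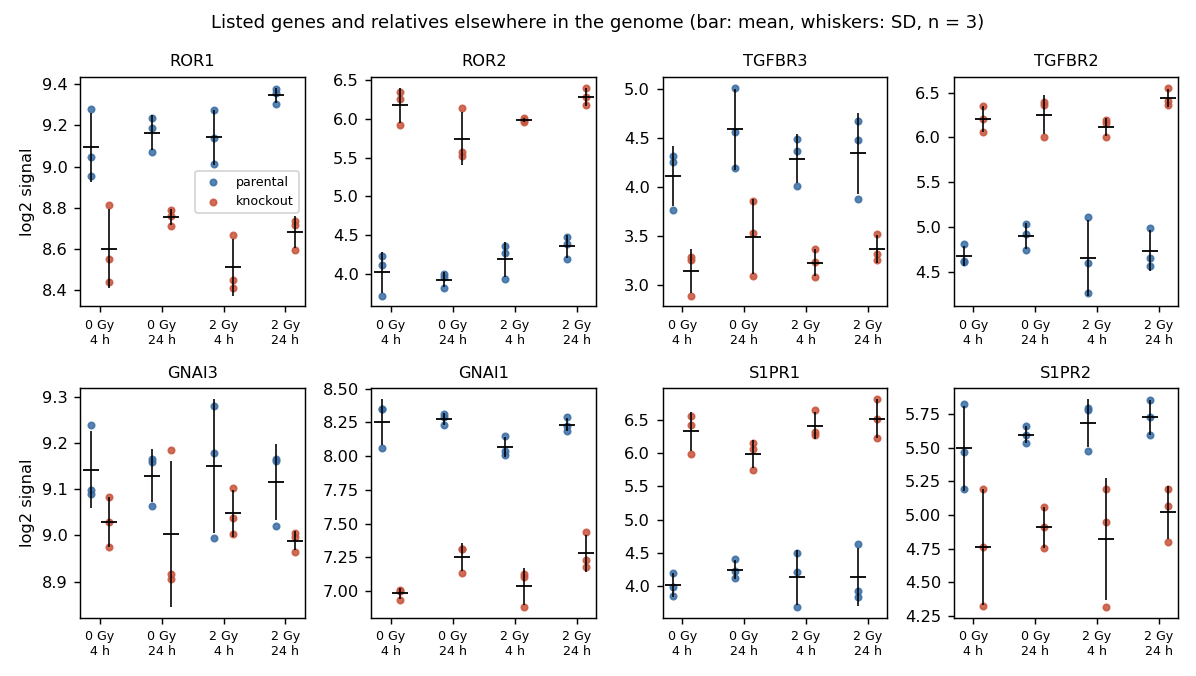
Log2 signal on every array for 4 listed genes, each beside a relative elsewhere in the genome, by dose and time, with parental arrays in blue, knockout arrays in red, and the mean (bar) and SD (whiskers) of 3 arrays. ROR2 (1.93) and TGFBR2 (1.52) are higher in knockout cells while ROR1 (-0.55) and TGFBR3 are lower, GNAI1 (-1.07) differs more than GNAI3 (-0.12), and S1PR2 (-0.75) is lower while S1PR1 (2.19) is higher.

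Among JAK-STAT genes (1 lower and 5 higher of 20), LIFR and OSMR, receptors of the interleukin 6 family that signal through JAK1, were higher by 1.14 ± 0.12 (adjusted p = 1.26e-05) and 1.14 ± 0.15 (adjusted p = 0.0069). OSMR was above background on 10 of 12 parental arrays and lost its call at 2 Gy and 24 h without parental replicate 2 or without knockout replicate 1 (0.74 in each). The feedback inhibitor SOCS2 was higher by 1.02 (adjusted p = 0.00069). Among Notch genes (2 lower and 0 higher of 17), the ligands JAG1 (-0.82 ± 0.15, adjusted p = 0.020) and JAG2 (-0.60 ± 0.12, adjusted p = 0.017) were lower. Without any of 4 single arrays JAG1 lost a call (-0.67 to -0.49), and without any of 3 JAG2 did (-0.42 to -0.39). Of the 20 expressed neighbours of JAG1, 19 were below 0, with a median of -0.82, and of 14 neighbours of JAG2, 12 were below 0, with a median of -0.15. Whether these neighbourhoods bear on the ligands was not tested.

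In the RAS-MAPK, oxidation, glutathione, GPI transamidase and PRC2 lists at most 1 gene each was called in all 4 conditions. Of 12 RAS-MAPK genes, 1 was called higher, MRAS (1.37 ± 0.36, adjusted p = 0.0021). It was above background on 7 of 12 parental arrays, and at 0 Gy and 24 h, where the difference was largest (1.90), on 1 of 3. Of 21 genes of branched-chain and fatty acid oxidation, ACAA2, the last enzyme of the mitochondrial spiral, was the one called (0.51 ± 0.05, adjusted p = 0.00023). Of 10 glutathione genes it was GPX4, which reduces lipid peroxides (0.57 ± 0.10, adjusted p = 9.25e-05). Of the 4 other subunits of the GPI transamidase, PIGS, at 7.65 to 8.12 in parental and 8.36 to 8.66 in knockout cells, was higher by 0.66 ± 0.10 (adjusted p = 7.45e-05), whereas PIGK was lower. Of 8 PRC2 genes 0 were called in all 4 conditions in either direction.

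Among 35 close relatives of other listed genes, 4 were lower and 2 higher in all 4 conditions. Like LMO4, LMO3 was lower (-0.93 ± 0.18, adjusted p = 0.0077). LMO3 lay at 7.82, 8.12 and 8.45 in parental cells and at 6.54, 7.16 and 7.63 in knockout cells. It lost the call at 2 Gy and 24 h without knockout replicate 3 (-0.50). Of the relatives of NEGR1 in the IgLON family, NTM was called higher (adjusted p = 0.0035), above background on 1 of 12 parental and 11 of 12 knockout arrays. Where 0 parental arrays were above background, it was at least 1.63-fold higher (0 Gy, 4 h), at least 1.64-fold (2 Gy, 4 h) and at least 2.06-fold (2 Gy, 24 h). LSAMP, of the same family, was lower (-0.71 ± 0.18, adjusted p = 0.042). NTM lost the call at 0 Gy and 4 h without knockout replicate 2, and LSAMP lost one without any of 5 single arrays (-0.55 to -0.28).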

How the data were processed

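RNA of parental and SLFN11 knockout ES8 cells was measured on 24 Affymetrix whole-transcript arrays, 3 per line, dose and time. Each deposited value is the log2 signal of a probe set, made with RMA and Affymetrix Expression Console 1.1 per the submitters' processing notes. Of 24351 probe sets, 17709 have 1 gene symbol in the platform annotation. The probe set with the highest mean was kept for 20 genes with several, which left 17687 genes, with no filter. Apart from the rule's threshold of a mean of 6, levels of different probe sets were not set against each other. Arrays carry no read depth, so their number limits the precision. No source used here names the genome build of the array annotation. Gene order and promoters come from RefSeq on GRCh38.p14.

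Tests used limma 3.58.1 in R 4.3.3 (1 mean per group over all 24 arrays, eBayes with an intensity trend), with Benjamini-Hochberg adjustment over 17687 genes and a threshold of 0.05. All adjusted p-values in the text are limma's. The fit was also run on simulated data with independent noise on every array. That run does not cover arrays that deviate together or arrays of narrow signal range. Nothing in the labels says that replicates were separate cultures, so p-values cover the spread between these samples alone, and that may be technical. The SD beside a mean difference is that of the 4 conditions and does not measure the precision of the difference.

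The genes, role groups and lists were chosen with earlier results of these data known. Named were S1PR1, the 12 expressed genes with the lowest and the 3 with the highest mean difference, the genes of each role group, the 3 genes on each side of the stretch, up to 4 unlisted genes of the stretch with the largest higher signal, and up to 3 genes per list called in all 4 conditions. Promoters are shown for S1PR1 and the 3 lowest expressed genes. The values of 1 of the named genes are not reported here.

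Replicate numbers were taken to pair arrays where every correlation of their deviations exceeded 0.1. This held for knockout minus parental cells at 0 Gy and 4 h (0.10 to 0.17) and at 2 Gy and 24 h (0.15 to 0.23), and for irradiation of knockout cells at 4 h (0.15 to 0.27) and at 24 h (0.13 to 0.24), and not for the other 8 comparisons of 2 groups. Alternatives were no trend, robust moderation, array weights, only the compared arrays, the replicate block, only genes with a mean above 6, quantile normalization again, centring, the mean of a gene's probe sets, leaving out both narrow arrays, and leaving out each array.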

Additional observations from a re-analysis of the deposited data

How the results depend on the processing

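No median and no called gene that was followed singly changed its direction under an alternative run. Followed singly were named genes and the listed genes of lowest adjusted p. For other calls only the counts in each direction were compared. Centring was compared for the medians and for some listed genes, but not for counts or for genes elsewhere. Where the replicate numbers pair the arrays, the block changed no count of calls by over 1.5 times. Elsewhere the replicate block gave 1 listed gene called in place of 0: lower after irradiation in parental cells at 24 h, lower with time in irradiated parental cells, and higher with time in knockout cells at 0 Gy and at 2 Gy. Array weights gave 1 called higher with time in irradiated parental cells (CACHD1, adjusted p = 0.019 in limma). The cause was not tested.

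Listed genes called higher between the lines were 3 in place of 5 at 0 Gy and 4 h with only genes of a mean above 6. That fit left out the dim listed genes, and the main fit also called 3 of the 38 expressed ones higher there. Listed genes called higher were 3 in place of 5 at 2 Gy and 24 h without the trend or with quantile normalization again. Without 1 array they ranged from 3 to 5 in both conditions (3 at 0 Gy and 4 h without parental replicate 2 or knockout replicate 3, and at 2 Gy and 24 h without parental replicate 3, knockout replicate 1 or knockout replicate 2). With only genes of a mean above 6, the genes elsewhere called lower were 13 in place of 22 (0 Gy, 4 h), 12 in place of 19 (0 Gy, 24 h) and 12 in place of 20 (2 Gy, 24 h). That fit held 121 of the 205 genes elsewhere. The main count over those 121 was not taken, so how far the calls changed for the same genes is not known. At 2 Gy and 24 h the genes elsewhere called lower were 12 without both narrow arrays. Without 1 array they ranged from 13 to 19 at 2 Gy and 4 h (13 without knockout replicate 1) and from 10 to 15 at 2 Gy and 24 h (10 without knockout replicate 1 and 11 without parental replicate 2), and those called higher there from 21 to 31, against 35.

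The median over expressed listed genes moved to -0.42 at 2 Gy and 4 h and to -0.44 at 2 Gy and 24 h without both narrow arrays. Without 1 array it ranged from -0.46 to -0.36 (0 Gy, 4 h), -0.48 to -0.35 (0 Gy, 24 h), -0.42 to -0.28 (2 Gy, 4 h) and -0.44 to -0.30 (2 Gy, 24 h). With 3 arrays per group, the unadjusted 95% interval of a response was 0.31 log2 units to either side for the median listed gene. Larger responses could also go uncalled after adjustment over all genes.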
